A study of Mus musculus with 29 samples.

Results

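Cohesin subunit genes were followed through ovary development in mice with and without the cell cycle inhibitor p27Kip1. They were 9 of the 51912 gene IDs in the deposited table, taken by name. Rec8, Stag3, Smc1b and Rad21l encode the 4 meiotic subunits. Rad21, Stag1, Stag2, Smc1a and Smc3 encode the 5 subunits used in mitosis and called mitotic here. Rec8 was also picked because it measured lower in mutant ovaries at 2 ages, so its difference between genotypes is given below as a description, without a test.

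The study measured RNA from dissociated ovary cells to ask how control of the cell cycle bears on ovarian development. Wild-type mice were Cdkn1b +/+ and mutant mice were Cdkn1b -/-, called Cdkn1b-null here. Cdkn1b encodes p27Kip1, which blocks cyclin-dependent kinases. Fetal ovaries were taken on embryonic day 13.5, written E13.5, and on embryonic day 18.5, written E18.5. Later ovaries were taken on postnatal day 8 (PND8) and at 12 weeks of age (12wk). Each age had 4 wild-type libraries. Cdkn1b-null ovaries gave 4 libraries at E18.5 and 3 at each other age, which makes 29 in all. Every ovary was dissociated with papain before extraction. The labels name neither the strain nor the null allele, and they do not say whether a library came from 1 animal or several. The p-values therefore measure the spread between these libraries, which may be technical in part.

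Cohesin is a ring that holds sister chromatids together. A pair of SMC proteins forms the arms of the ring, a kleisin protein closes it, and a STAG protein binds the kleisin. Dividing cells build the ring from Smc1a, Smc3, the kleisin Rad21 and either Stag1 or Stag2. Germ cells in meiosis add Smc1b, Stag3 and the kleisins Rec8 and Rad21l, while Smc3 serves in both kinds of ring. In the mouse ovary, germ cells enter meiosis during fetal life, reach a late stage of the first meiotic prophase around birth and stay arrested there inside follicles. Rec8 is the kleisin whose cleavage releases the chromosomes at the meiotic divisions.

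The region around the start of each meiotic gene is shown because all 4 of these genes fell between E18.5 and PND8, as given below. RefSeq promoters on GRCm38.p6 were matched for 7 of the 9 genes, Rad21 and Stag2 being without an entry. Each sequence runs 5′ to 3′ on the gene's own strand, from 250 bases before the RefSeq start to 30 bases from it, 280 bases in all. Capitals mark matches, on either strand, to 4 motifs: TTCCCGC (the E2F-type site), CACGTG (an E-box), CNCCTCAG (the STRA8-type site) and CCAAT (the CCAAT box, which reads ATTGG where it lies on the other strand). The Rec8 window is chr14:55617916-55618195 on the plus strand, the Stag3 window is chr5:138280259-138280538 on the plus strand, the Smc1b window is chr15:85131928-85132207 on the minus strand and the Rad21l window is chr2:151668504-151668783 on the minus strand.
Rec8: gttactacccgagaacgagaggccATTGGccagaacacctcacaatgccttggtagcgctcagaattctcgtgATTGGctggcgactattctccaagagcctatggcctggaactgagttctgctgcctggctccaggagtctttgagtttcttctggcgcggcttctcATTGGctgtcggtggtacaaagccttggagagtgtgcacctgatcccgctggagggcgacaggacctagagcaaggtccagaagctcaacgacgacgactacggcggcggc
Stag3: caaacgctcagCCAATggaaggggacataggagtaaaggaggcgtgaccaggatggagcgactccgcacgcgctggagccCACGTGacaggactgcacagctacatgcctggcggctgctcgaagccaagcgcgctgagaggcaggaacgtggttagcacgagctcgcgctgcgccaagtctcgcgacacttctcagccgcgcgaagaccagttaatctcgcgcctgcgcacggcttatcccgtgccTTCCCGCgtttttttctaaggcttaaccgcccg
Smc1b: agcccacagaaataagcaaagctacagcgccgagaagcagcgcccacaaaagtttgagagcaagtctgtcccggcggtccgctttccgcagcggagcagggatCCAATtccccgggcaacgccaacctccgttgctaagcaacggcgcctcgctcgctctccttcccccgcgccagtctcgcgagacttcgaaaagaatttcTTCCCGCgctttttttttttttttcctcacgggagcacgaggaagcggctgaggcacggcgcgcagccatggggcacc
Rad21l: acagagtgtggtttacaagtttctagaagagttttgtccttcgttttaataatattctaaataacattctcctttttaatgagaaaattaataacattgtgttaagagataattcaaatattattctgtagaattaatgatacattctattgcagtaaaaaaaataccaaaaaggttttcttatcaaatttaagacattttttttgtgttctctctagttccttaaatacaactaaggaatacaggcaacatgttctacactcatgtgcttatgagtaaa
The 4 windows differed in composition. The Stag3 window was 61.8% G or C with 30 CpG pairs and the Smc1b window 60% with 28, while the Rad21l window was 26.4% with 1. The median over all 32851 promoters of this length was 52.5% and 6 CpG pairs, and the Rec8 window had 57.1% and 16. The E2F-type letters lay at positions -3 to 4 of Stag3 and -48 to -42 of Smc1b, counted from the start, and also in the Stag1 window, against 4.29% of all promoters. Rec8 had 3 CCAAT boxes, all on the other strand, and Stag3, Smc1b and the mitotic genes Stag1 and Smc1a had 1 each, where 36.1% of all promoters had at least 1. The E-box lay in the Stag3 window alone among the 7 (6.79% of all promoters). The STRA8-type letters were in none of the 7 windows (7.29% of all promoters), and the Rad21l window held none of the 4 motifs. These are matches of letters, and no binding was measured.

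The depth ran from 14.1 to 48.2 M counts per library. It was 14.1 to 24.9 M in fetal and 24.1 to 48.2 M in postnatal libraries. At E18.5 it was 17.3 to 22.8 M and at PND8 32.3 to 48.2 M, without overlap. Age and depth cannot be told apart over that step. Levels are counts per 1 M counts (CPM), scaled by TMM over all 29 libraries, and a count of 3 in 1 library, the smallest level taken as detected, is 0.0622 to 0.213 CPM. Cdkn1b itself was lower in every Cdkn1b-null library than in the wild-type libraries of its age, at 4.29 to 4.75 against 19.1 to 26.2 CPM at E13.5 and 65.1 to 79.9 against 133 to 173 CPM at PND8. Foxl2, the transcription factor that marks ovarian somatic cells, was detected in all 29 libraries. At E13.5, Cdkn1b-null replicate 3 stood apart: its summed level of 19 meiotic prophase genes was 904.6 CPM, against 189.1 to 365.7 in the other 6 libraries of that age, and its counts on Y-linked genes were 31, against 0 to 3. At PND8, Cdkn1b-null replicates 3 and 4 had 54 and 47 Y-linked counts, against 8 to 25 in the other PND8 libraries. Haemoglobin genes took 18.97% of the counts of E13.5 wild-type replicate 3 and at most 1.048% in the other E13.5 libraries.

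In wild-type ovaries, Smc1b and Rad21l rose between E13.5 and E18.5 while Stag3 fell, and 4 of the 5 mitotic genes fell. Rec8 also measured higher at E18.5, but that call held in 5 of the 8 fits that left out 1 library. Wild-type libraries of 2 ages were among those on which Rec8 was picked, so its wild-type calls are not free of that choice. Over that step 16.6% of the 16603 genes tested rose and 17.5% fell. Between E18.5 and PND8 all 4 meiotic genes fell and 4 of the 5 mitotic genes rose, where 37.6% of 17421 genes rose and 36.9% fell. In Cdkn1b-null ovaries every Rec8 library lay below every wild-type library at the 3 later ages. Among all genes tested the share with such a gap downward was 5.56%, 6.61% and 4.06% at those ages in order, and nothing is read from this for Rec8, which that contrast chose. The 3 other meiotic genes overlapped between genotypes at every age. The mitotic genes Rad21 and Smc1a were higher in Cdkn1b-null ovaries at E18.5, 2 of the 8 genes other than Rec8, where 4.99% of 16322 genes were called and 3.32% were called higher. In the text, a gene called changed passed edgeR's quasi-likelihood test with a Benjamini-Hochberg adjusted p under 0.05 over all genes tested, and fold changes are on the log2 scale with their standard error (SE).

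**Figure D1:**
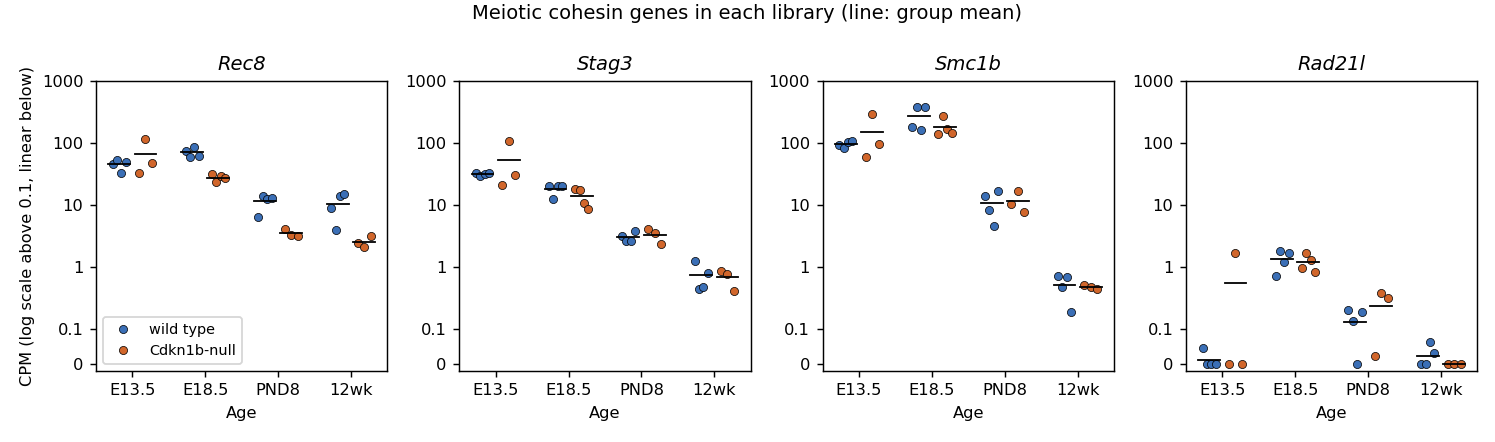
Level of each meiotic cohesin gene in every library, in CPM on an axis that is logarithmic above 0.1 and linear below it. Points are libraries, blue for wild type and orange for Cdkn1b-null, and lines are group means; Rec8 is the gene whose Cdkn1b-null points lie wholly below wild type at E18.5, PND8 and 12wk.

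Rec8 (ENSMUSG00000002324, chromosome 14, 55618037 to 55625395, plus strand) is the kleisin of meiotic cohesin that stays on chromosomes until the meiotic divisions. In wild-type ovaries it measured 45.6, 54.5, 32.9 and 50.0 CPM at E13.5 and 74.8, 59.4, 87.5 and 62.2 CPM at E18.5. After birth it measured 6.39, 14.2, 12.5 and 12.9 CPM at PND8 and 8.90, 3.94, 14.0 and 15.4 CPM at 12wk. The E18.5 libraries were thus the highest, all above those of E13.5, and the libraries of the 2 postnatal ages overlapped. The wild-type rise from E13.5 to E18.5 was 0.62 (SE 0.18, edgeR adjusted p 0.0213), and the fall to PND8 was -2.70 (SE 0.23, edgeR adjusted p 2.76e-06). From PND8 to 12wk the difference was -0.04 (SE 0.41, edgeR adjusted p 0.952). Wild-type libraries of 2 of these ages were among those on which Rec8 had been picked. A pick for a lower mutant level favours high wild-type values, so the p-values of these steps are not free of that choice. The rise to E18.5 lost its call without E18.5 replicate 1 (edgeR adjusted p 0.0505), without E18.5 replicate 3 (0.0667) or without E13.5 replicate 1 (0.0559), all wild type. With all 8 groups in 1 fit its edgeR adjusted p was 0.13.

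In Cdkn1b-null ovaries, Rec8 measured 33.2, 116 and 47.5 CPM at E13.5, where the 116 CPM is replicate 3. It measured 31.5, 23.2, 29.1 and 27.5 CPM at E18.5, all below the lowest wild-type library of that age. It measured 4.14, 3.35 and 3.25 CPM at PND8 and 2.43, 2.11 and 3.19 CPM at 12wk. The groups did not overlap at these 2 ages either, although the lowest wild-type library at 12wk, at 3.94 CPM, was close to the highest Cdkn1b-null library. The fitted differences, described without a test, were -1.36, -1.70 and -2.04 on the log2 scale at these 3 ages in order, or 0.39, 0.309 and 0.244 times wild type. At E13.5 the difference was 0.48 with all libraries and -0.20 without Cdkn1b-null replicate 3. In bulk ovary RNA, fewer cells of a type and less RNA per cell cannot be told apart.

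The genotype difference in Rec8 was set beside germ cell genes measured in the same libraries. Ddx4, an RNA helicase of germ cells, averaged 46.2 ± 9.88 CPM in wild-type and 30.2 ± 7.34 CPM in Cdkn1b-null ovaries at E18.5 (SD, 4 libraries each). The log2 ratio of Rec8 to Ddx4 at E18.5 was 0.75, 0.14, 1.41 and 0.22 in wild type and 0.38, -0.75, -0.21 and 0.19 in Cdkn1b-null libraries, so the genotypes overlapped on this ratio. At PND8 it was -0.36, 2.17, 2.48 and 0.49 in wild type and -0.56, -1.91 and -0.78 in Cdkn1b-null libraries, without overlap, and wild-type replicate 1 lay nearest to the Cdkn1b-null libraries. At 12wk it was 3.24 to 5.11 in wild type and 2.64 to 4.30 in Cdkn1b-null libraries, where Ddx4 itself was at 0.107 to 0.792 CPM, near the smallest detected level. None of these ratios was tested, since Rec8 was chosen by the same contrast. Rec8 did not keep step with Ddx4 in wild type, where the mean log2 ratio was -1.32, 0.63, 1.19 and 4.30 in order of age. Stag3 and Smc1b did not either. In the same order their mean log2 ratios to Ddx4 were -1.81, -1.33, -0.67 and 0.53 for Stag3 and -0.22, 2.51, 1.03 and -0.04 for Smc1b. Among PND8 wild-type libraries Ddx4 measured 8.22, 3.14, 2.24 and 9.24 CPM, while Rec8 ranged from 6.39 to 14.2 CPM. The ratio of Rec8 to Ddx4 is therefore not read as a Rec8 level per germ cell. At PND8 the log2 ratio of Smc1b to Ddx4 was also lower in Cdkn1b-null libraries, at 0.77, 0.46 and 0.48 against 0.78, 1.43, 1.03 and 0.88 in wild type, a gap far narrower than the spread within wild type. The ratio of Stag3 to Ddx4 overlapped there, at -1.82 to -0.56 against -1.36 to 0.22. These ratios were not tested either.

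Whole marker lists differed between genotypes in ways that changed with age. At every age 0 genes of the germ cell, meiotic prophase and oocyte lists were called. Few of all genes were called either, at 0.00606%, 4.99%, 0.349% and 0.0115% in order of age. At E18.5 the summed level of the 19 meiotic prophase genes outside cohesin was 717 to 1466 CPM in wild type and 519 to 974 CPM in Cdkn1b-null libraries. All 18 of these genes tested had a negative fold change, with a median of -0.65 against -0.04 over all genes tested. At PND8 the germ cell, prophase and oocyte lists did not share the lower level of Rec8. The prophase sum was 50.9 to 83.0 against 61.6 to 72.7 CPM, with a median of 0.01 over the 11 genes tested. The 7 germ cell genes summed to 44.9 to 180 CPM in wild type and 95.02 to 166 CPM in Cdkn1b-null libraries, with a median of 0.22. The 12 oocyte genes summed to 192 to 715 against 441 to 1029 CPM, with a median of 0.62. At 12wk the summed levels of the lists differed from each other in direction. The oocyte sum was 8.92 to 115 CPM in wild type and 5.07 to 8.61 CPM in Cdkn1b-null libraries, without overlap and with a median of -2.86 over the 9 genes tested. The germ cell sum was higher in Cdkn1b-null libraries, at 79.4 to 105 against 26.2 to 53.1 CPM. Yet 3 of the 4 genes tested had a negative fold change and 1 a positive one, with a median of -1.11. Ddx4 and Dazl reached at most 0.792 and 1.87 CPM in a 12wk library, so that sum was carried by other genes of the list. The prophase sum overlapped, at 28.4 to 32.9 against 25.7 to 36.9 CPM, and up to 10 of the 19 genes in a wild-type library and up to 11 in a Cdkn1b-null library were at 0. A further list held 5 stromal genes (Pdgfra, Col1a1 and others). All 5 had a negative fold change at E18.5 and at PND8, with medians of -0.52 and -0.67, although their summed levels overlapped between genotypes at both ages. At 12wk 3 were negative and 2 positive, with a median of -0.19. The part of any of these lists in the Rec8 difference was not tested.

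**Figure D2:**
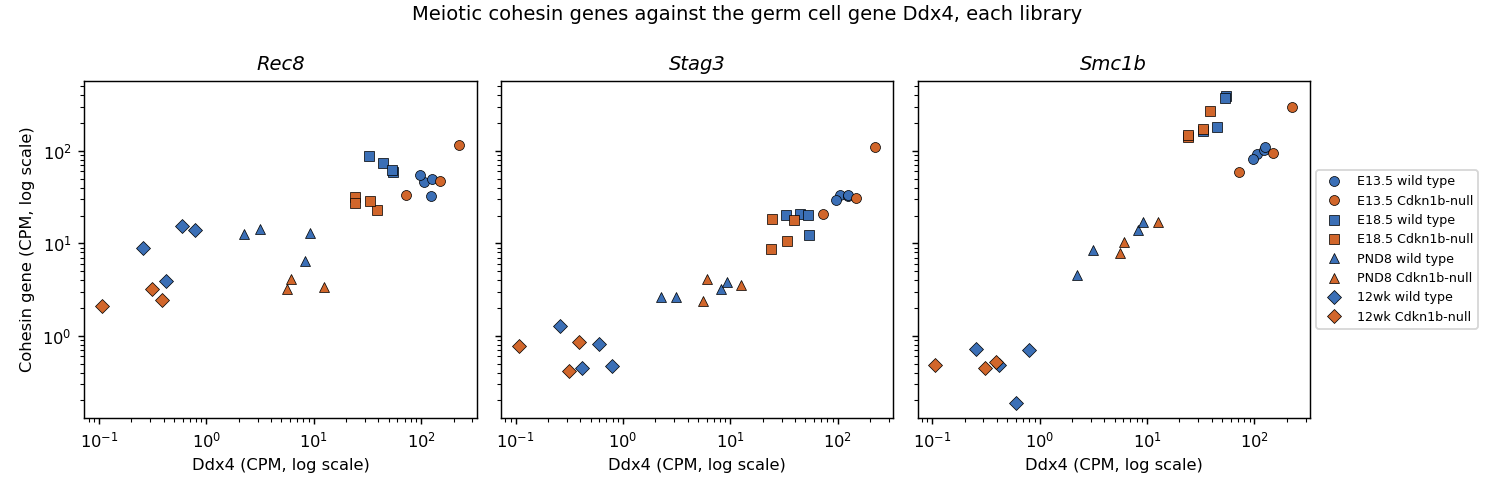
Rec8, Stag3 and Smc1b plotted against the germ cell gene Ddx4 in every library, in CPM on log axes, with symbol shape for age and colour for genotype. The Rec8 level of Cdkn1b-null ovaries lies below wild type at the 3 later ages, while the Stag3 and Smc1b levels of both genotypes overlap at each age.

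Rad21l (ENSMUSG00000074704, chromosome 2, 151645404 to 151668533, minus strand) is the kleisin of early meiotic prophase. It was scarce: in wild type at E13.5 it had a single count in all 4 libraries together, in replicate 1. At E18.5 it measured 0.723, 1.84, 1.21 and 1.67 CPM in wild type and 0.96, 1.67, 1.33 and 0.85 CPM in Cdkn1b-null libraries, with overlap. The 4 wild-type libraries held 115 counts at E18.5, a ratio of 112 to E13.5 with a 95% counting interval of 19.7 to 4.46e+03. It was called as rising in wild type from E13.5 to E18.5 (edgeR adjusted p 3.05e-04) and as falling from E18.5 to PND8, by -3.44 (SE 0.64, edgeR adjusted p 6.48e-04). PND8 wild-type libraries held 18 counts and PND8 Cdkn1b-null libraries 24 counts. At 12wk the wild-type libraries held 3 counts and the Cdkn1b-null libraries 0, which allows up to 0.0319 CPM (3 counts over the group), a limit from counting error only.

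At E13.5 the Cdkn1b-null counts of Rad21l came from replicate 3 alone, which had 43 counts (1.67 CPM) while replicates 1 and 4 had 0. From E13.5 to E18.5 the Cdkn1b-null counts went from 43 to 102, a ratio of 1.75 with a 95% counting interval of 1.21 to 2.56. Without replicate 3 the counts went from 0 to 102, at least 14.4-fold higher against a floor of 3 counts over the group. The Cdkn1b-null step was not called with all libraries (edgeR adjusted p 0.534) and was called without replicate 3 (edgeR adjusted p 0.00371). Between genotypes Rad21l could be tested at E18.5 only, where the difference was -0.20 (SE 0.38, edgeR adjusted p 0.80).

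Rad21 (ENSMUSG00000022314, chromosome 15, 51962240 to 51991747, minus strand) is the kleisin of mitotic cohesin. In wild type it measured 258, 253, 229 and 183 CPM at E13.5, 176, 139, 159 and 160 CPM at E18.5, 356, 350, 373 and 341 CPM at PND8 and 247, 247, 339 and 255 CPM at 12wk. All E18.5 libraries lay below those of the other ages and all PND8 libraries above them. Rad21 fell by 0.56 on the log2 scale from E13.5 to E18.5 (SE 0.14, edgeR adjusted p 0.0114) and rose by 1.08 to PND8 (SE 0.09, edgeR adjusted p 2.93e-06). The step from PND8 to 12wk was -0.31 (SE 0.11, edgeR adjusted p 0.0575), and it was called without 12wk wild-type replicate 3, the library at 339 CPM (-0.43, edgeR adjusted p 0.00411). The 12wk libraries overlapped those of E13.5.

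In Cdkn1b-null ovaries, Rad21 measured 199, 226, 254 and 210 CPM at E18.5, every library above every wild-type library of that age. The difference was 0.48 (SE 0.11, edgeR adjusted p 0.0292), 1.39 times wild type. At the other ages the Cdkn1b-null values were 252, 206 and 273 CPM at E13.5, 435, 395 and 412 CPM at PND8 and 286, 337 and 276 CPM at 12wk. The groups overlapped at E13.5 and 12wk. At PND8 they did not overlap, and the difference of 0.21 was not called (SE 0.07, edgeR adjusted p 0.212). The E18.5 call was lost in 5 of the 8 fits that left out 1 library: wild-type replicate 3 (edgeR adjusted p 0.0666) or 4 (0.0695), or Cdkn1b-null replicate 2 (0.0731), 3 (0.114) or 4 (0.0746). The difference stayed between 0.41 and 0.53 in all 8.

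Stag3 (ENSMUSG00000036928, chromosome 5, 138280240 to 138312393, plus strand) is the meiotic STAG protein. In wild type it measured 33.0, 29.5, 32.1 and 33.0 CPM at E13.5, 20.6, 12.4, 20.1 and 20.5 CPM at E18.5, 3.19, 2.63, 2.62 and 3.83 CPM at PND8 and 1.26, 0.449, 0.475 and 0.819 CPM at 12wk. Its level thus fell at each age, and no 2 ages overlapped. The steps were -0.81 (SE 0.18, edgeR adjusted p 0.00612), -2.66 (SE 0.22, edgeR adjusted p 2.20e-06) and -1.94 (SE 0.38, edgeR adjusted p 0.00498), and the first was not called with all 8 groups in 1 fit (edgeR adjusted p 0.0823). Stag3 and Rec8 therefore moved in opposite directions from E13.5 to E18.5, and Stag3 was the only one of the 4 meiotic genes called lower over that step. In the same wild-type libraries Ddx4 measured 96.7 to 125 CPM at E13.5, 32.9 to 54.1 CPM at E18.5, 2.24 to 9.24 CPM at PND8 and 0.258 to 0.792 CPM at 12wk. The mean log2 ratio of Stag3 to Ddx4 rose with age, as given above, and was not tested.

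In Cdkn1b-null ovaries, Stag3 measured 20.9, 109 and 31.2 CPM at E13.5, the 109 CPM being replicate 3. It measured 18.4, 17.8, 10.7 and 8.77 CPM at E18.5, 4.14, 3.55 and 2.41 CPM at PND8 and 0.867, 0.776 and 0.416 CPM at 12wk. The genotypes overlapped at all 4 ages and no difference was called. In order of age the differences were 0.70 (SE 0.48), -0.41 (SE 0.26), 0.12 (SE 0.25) and -0.15 (SE 0.50), with edgeR adjusted p from 0.367 to 0.989. Without Cdkn1b-null replicate 3 the E13.5 difference was -0.32 (SE 0.19). The Cdkn1b-null fall from E13.5 to E18.5 was -1.92 (SE 0.59, edgeR adjusted p 0.0489). It was -0.90 without that E13.5 library (edgeR adjusted p 0.0762), and of the 7 fits without 1 library only the one without E13.5 replicate 1 kept the call. It was also lost without the low-count filter (edgeR adjusted p 0.147).

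Stag1 (ENSMUSG00000037286, chromosome 9, 100597798 to 100959375, plus strand) and Stag2 (ENSMUSG00000025862, chromosome X, 42149317 to 42277185, plus strand) are the STAG proteins of mitotic cohesin. Wild-type Stag1 averaged 118 ± 10.6 CPM (SD, n = 4) at E13.5, 83.1 ± 9.74 CPM at E18.5, 123 ± 4.02 CPM at PND8 and 103 ± 12.3 CPM at 12wk. Wild-type Stag2 averaged 48.3 ± 2.97, 61.6 ± 6.49, 142 ± 8.07 and 138 ± 7.82 CPM at the same ages. The pair differed in course: from E13.5 to E18.5 Stag1 fell by 0.51 on the log2 scale (SE 0.12, edgeR adjusted p 0.00921) and Stag2 rose by 0.34 (SE 0.12, edgeR adjusted p 0.0465). Both rose to PND8, Stag1 by 0.48 (SE 0.10, edgeR adjusted p 0.00152) and Stag2 by 1.13 (SE 0.10, edgeR adjusted p 3.34e-06). Neither was called between PND8 and 12wk. The Stag2 rise to E18.5 was fragile: it kept its call in 1 of 8 fits that left out a wild-type library, the one without E18.5 replicate 2, and its edgeR adjusted p was 0.0591 to 0.138 in the other 7. It was also lost with RLE scaling (0.0503) and without the low-count filter (0.105).

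Between genotypes, Stag1 at E18.5 measured 89.2, 68.8, 85.2 and 89.4 CPM in wild type and 104, 104, 106 and 109 CPM in Cdkn1b-null libraries, without overlap. The difference of 0.34 was not called (SE 0.10, edgeR adjusted p 0.085). Stag2 at E18.5 measured 70.0, 54.1, 61.1 and 61.2 CPM against 68.8, 78.4, 74.7 and 75.2 CPM, with overlap at 0.26 (SE 0.10, edgeR adjusted p 0.168). At 12wk Stag2 measured 129, 134, 143 and 146 CPM in wild type and 179, 191 and 164 CPM in Cdkn1b-null libraries. Those groups did not overlap, and the difference of 0.36 was not called (SE 0.08, edgeR adjusted p 0.34).

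Smc1b (ENSMUSG00000022432, chromosome 15, 85064689 to 85131964, minus strand) is the meiotic partner of Smc3. In wild type it measured 92.2, 82.2, 103 and 110 CPM at E13.5, 183, 389, 165 and 377 CPM at E18.5, 14.1, 8.47, 4.56 and 17.0 CPM at PND8 and 0.718, 0.481, 0.697 and 0.189 CPM at 12wk. No 2 ages overlapped, and at E18.5 replicates 2 and 4 were more than 2 times as high as replicates 1 and 3. Smc1b rose by 1.51 to E18.5 (SE 0.28, edgeR adjusted p 0.00242), then changed by -4.74 to PND8 (SE 0.49, edgeR adjusted p 1.23e-05) and by -4.33 to 12wk (SE 0.53, edgeR adjusted p 7.33e-04). It had the largest fall of the cohesin subunit genes tested at each of the 2 later steps.

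In Cdkn1b-null ovaries, Smc1b measured 59.3, 298 and 95.9 CPM at E13.5, 140, 273, 171 and 148 CPM at E18.5, 10.4, 17.2 and 7.81 CPM at PND8 and 0.52, 0.481 and 0.451 CPM at 12wk. The genotypes overlapped at every age, and the differences of 0.59 (SE 0.46), -0.61 (SE 0.34), 0.08 (SE 0.48) and -0.11 (SE 0.50) were not called (edgeR adjusted p 0.326 to 0.989). Without the E13.5 replicate 3, the 298 CPM library, the first of these was -0.34 (SE 0.21). The Cdkn1b-null step from E13.5 to E18.5 was 0.31 with all libraries (SE 0.57, edgeR adjusted p 0.723) and 1.24 without that library (SE 0.33, edgeR adjusted p 0.0338).

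**Figure D3:**
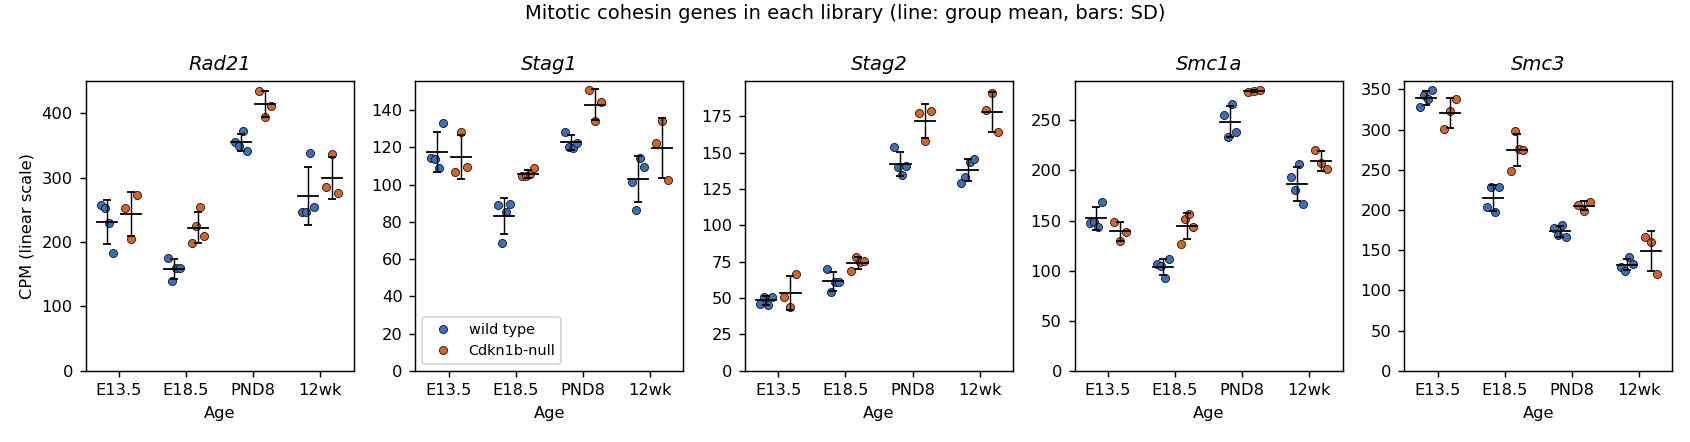
Level of each mitotic cohesin gene in every library, in CPM on linear axes that start at 0. Points are libraries, blue for wild type and orange for Cdkn1b-null, with group means as lines and SDs as bars; at PND8 the Cdkn1b-null points of all 5 genes lie above the wild-type points.

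Smc1a (ENSMUSG00000041133, chromosome X, 152016428 to 152062694, plus strand) is the mitotic partner of Smc3. In wild type it averaged 152 ± 11.3 CPM (SD, n = 4) at E13.5, 104 ± 8.10 CPM at E18.5, 249 ± 15.2 CPM at PND8 and 187 ± 17.1 CPM at 12wk. The order from low to high was E18.5, E13.5, 12wk and PND8, with no overlap except between E13.5 and 12wk, whose ranges met at 167 to 169 CPM. All 3 steps were called, at -0.56 (SE 0.11, edgeR adjusted p 0.00305), 1.18 (SE 0.10, edgeR adjusted p 2.16e-06) and -0.34 (SE 0.08, edgeR adjusted p 0.0144).

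Between genotypes, Smc1a at E18.5 measured 107, 105, 92.8 and 112 CPM in wild type and 127, 151, 156 and 144 CPM in Cdkn1b-null libraries, without overlap. The difference was 0.46 (SE 0.10, edgeR adjusted p 0.0227), 1.38 times wild type. It lost its call without wild-type replicate 3 (edgeR adjusted p 0.0665) or Cdkn1b-null replicate 2 (0.0691), 3 (0.0984) or 4 (0.075). At E13.5 the Cdkn1b-null libraries measured 149, 130 and 139 CPM, within or below the wild-type range of 144 to 169 CPM. From E13.5 to E18.5 Smc1a therefore fell in wild type and was level in Cdkn1b-null ovaries, where the step was 0.08 (SE 0.10, edgeR adjusted p 0.619). The difference between these steps, tested over all 29 libraries, was 0.60 (SE 0.13, edgeR adjusted p 0.0221). It lost its call without E18.5 wild-type replicate 3 (edgeR adjusted p 0.0515), E18.5 Cdkn1b-null replicate 3 (0.0639) or E13.5 Cdkn1b-null replicate 3 (0.072) or 4 (0.0568).

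Smc3 (ENSMUSG00000024974, chromosome 19, 53600398 to 53645833, plus strand) belongs to mitotic and meiotic rings alike. In wild type it measured 329, 343, 337 and 349 CPM at E13.5, 204, 229, 198 and 229 CPM at E18.5, 177, 169, 181 and 166 CPM at PND8 and 129, 124, 141 and 133 CPM at 12wk. It fell at every step, by 0.67, 0.39 and 0.32 on the log2 scale (SE 0.10, 0.10 and 0.07, edgeR adjusted p 9.31e-04, 0.00333 and 0.00718), and was the only mitotic gene that did not rise from E18.5 to PND8. At E18.5 the Cdkn1b-null libraries measured 249, 298, 276 and 275 CPM, all above wild type. That difference of 0.34 was not called (SE 0.09, edgeR adjusted p 0.0571), and it was called without wild-type replicate 2 (edgeR adjusted p 0.0352), without the low-count filter (0.047) and with all groups in 1 fit (0.0181).

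Counted over the 8 genes other than Rec8, all 8 were called in wild type from E13.5 to E18.5 (3 higher and 5 lower), where 34% of the 16603 genes tested were called. All 8 were called from E18.5 to PND8 (4 higher and 4 lower), where 74.6% of 17421 genes were called. From PND8 to 12wk, 4 of the 7 tested were called, all lower, where 30.5% of 17293 genes were called and 14.3% were lower, Rad21l having too few counts to be tested. The median step of the 5 mitotic genes was -0.56 and then 1.08, against 0.01 over all genes tested in each step. A list of 14 genes of dividing cells, used again below, took a like course in wild type. Of these, 13 were called lower, then 11 higher and then 13 lower (17.5%, 37.6% and 14.3% of all genes). Their median steps were -1.47, 1.12 and -0.83, and their part in the subunit steps was not tested. Consecutive steps share the libraries of the age between them.

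In Cdkn1b-null ovaries the steps were counted over the 8 genes other than Rec8. From E13.5 to E18.5, 2 of 8 were called, Stag2 higher and Stag3 lower, where 30.2% of all genes tested were called. The Stag2 rise was 0.49 (SE 0.14, edgeR adjusted p 0.0279). It lost its call without E18.5 Cdkn1b-null replicate 2 (edgeR adjusted p 0.0718), 3 (0.0703) or 4 (0.0649), and without E13.5 Cdkn1b-null replicate 1 (0.0735) or 3 (0.0785). With E13.5 replicate 3 left out, Smc1b and Rad21l were the 2 genes called, both higher. From E18.5 to PND8 all 8 were called, in the directions seen in wild type, where 77.4% of all genes were called. From PND8 to 12wk, 5 of the 7 tested were called, all lower, where 29.1% of all genes were called and 14.3% were lower. These were Stag3 (-2.21, SE 0.40), Smc1b (-4.52, SE 0.37), Rad21 (-0.38, SE 0.09), Smc1a (-0.33, SE 0.07) and Smc3 (-0.38, SE 0.11).

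The last 3 of these calls, at edgeR adjusted p 0.0196, 0.0166 and 0.0394, depended on single libraries. Rad21 kept its call only without 12wk Cdkn1b-null replicate 3, and its edgeR adjusted p was 0.0516 to 0.0701 in the other 5 fits that left out 1 library. Smc1a lost its call without PND8 Cdkn1b-null replicate 1 (edgeR adjusted p 0.0524), 3 (0.0723) or 4 (0.0536). Smc3 kept its call only without 12wk Cdkn1b-null replicate 1, and its edgeR adjusted p was 0.0544 to 0.112 in the other 5 fits. Rec8, not tested in Cdkn1b-null ovaries, stepped by -1.21, -3.02 and -0.38, and the first of these was -0.53 without E13.5 replicate 3.

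Between genotypes, counts again cover the 8 genes other than Rec8. At E13.5, 0 of the 7 tested were called, where 0.00606% of 16508 genes, a single gene, were called. At E18.5, 2 of 8 were called, as given above. At PND8 and 12wk, 0 of 7 were called, where 0.349% and 0.0115% of all genes were called. At an unadjusted p under 0.05, edgeR gave 0 of these genes at E13.5, against 3.49% of all genes. By the same measure PND8 held 4 of the 5 mitotic genes (15% of all genes) and 12wk held Stag2 (9.63% of all genes). DESeq2, the other tool run, called none of them at E13.5. It called Rad21, Stag1, Smc1a and Smc3 at E18.5 (4 of 8), Rad21, Stag2 and Smc3 at PND8 (3 of 7) and Stag2 at 12wk (1 of 7). Over all genes DESeq2 called 1685, 824 and 326 at those ages in order, where edgeR called 814, 62 and 2, so the edgeR shares above do not apply to its counts. The genes that passed the low-count filter, the same for both tools, numbered 16322, 17785 and 17396 at those ages.

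All 5 mitotic genes had a positive difference at E18.5, PND8 and 12wk, with medians of 0.34, 0.21 and 0.17 against -0.04, -0.0029 and -0.0037 over all genes tested. Their libraries did not overlap for 4 of 5 genes at E18.5, where the Cdkn1b-null group lay above wild type without overlap for 9.18% of all genes. They did not overlap for 5 of 5 at PND8 (7.89% of all genes) and 1 of 5 at 12wk (4.66% of all genes). At E13.5 the 5 genes were mixed, from -0.16 to 0.12, and 0 of 5 lay above wild type without overlap (1.76% of all genes). The PND8 values of Smc1a were 279, 279 and 280 CPM in Cdkn1b-null libraries against 234 to 267 CPM in wild type, and those of Smc3 were 206, 199 and 210 CPM against 166 to 181 CPM.

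Genes of dividing cells moved with the mitotic subunits at E18.5. Of 14 such genes (Mki67, Top2a and others), 13 were called higher in Cdkn1b-null ovaries, with a median of 1.11, where 3.32% of all genes were called higher and the median over all genes was -0.04. Their summed level was 878 to 1264 CPM in wild type and 2023 to 2601 CPM in Cdkn1b-null libraries, and none was at 0 in any library. At PND8 the same sum was 2517 to 3126 against 2996 to 3423 CPM, with 0 of 14 called (0.349% of all genes) and a median of 0.17. At 12wk it was 1157 to 2049 against 1353 to 1771 CPM, with 0 of 14 called (0.0115% of all genes). The part of dividing cells in the subunit differences was not tested.

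**Figure D4:**
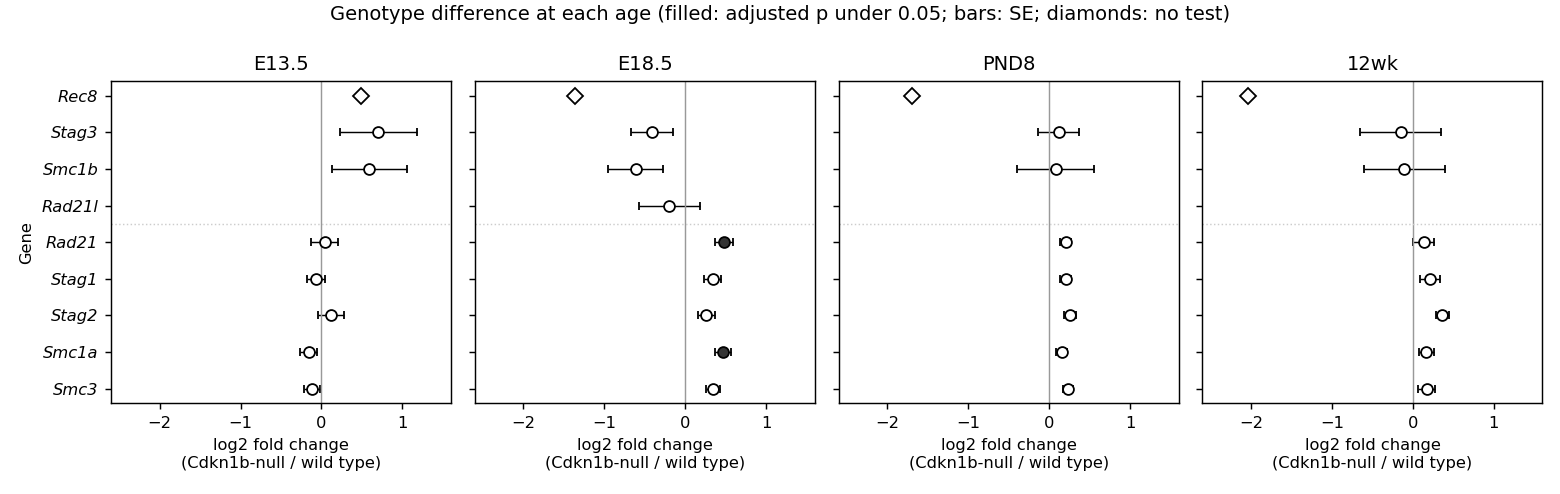
Log2 fold change of Cdkn1b-null over wild type for each gene at each age, with SE bars; filled circles passed the edgeR test, open circles did not, diamonds mark Rec8 (no test), and Rad21l is blank where it was not tested. Rec8 lies at -1.36, -1.70 and -2.04 at the 3 later ages, and Rad21 and Smc1a are the filled points at E18.5.

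Whether a genotype effect changed with age was tested over all 29 libraries. None of the 8 genes other than Rec8 was called by the F test of all ages together (Smc1a had the smallest edgeR adjusted p, 0.0743), where 0.806% of 20359 genes were called. At an unadjusted p under 0.05 that test gave 3 of them, Rad21l, Smc1a and Smc3 (12.7% of all genes). DESeq2's likelihood ratio test called 1 of them and 706 over all genes, where edgeR's F test called 164. Of single steps, the Smc1a step from E13.5 to E18.5 described above was called (0.653% of all genes), and 0 of the 8 were called for the steps from E18.5 to PND8 (0.329%) and from PND8 to 12wk (0.0246%). For Rec8 the Cdkn1b-null step minus the wild-type step was -1.88 from E13.5 to E18.5, a rise in wild type beside a fall in Cdkn1b-null ovaries, and it was -1.17 without E13.5 Cdkn1b-null replicate 3.

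Levels of different genes were compared per kb of merged exon. In wild type at E13.5 the order from the highest was Smc3 (61.3 CPM per kb), Rad21 (54.6), Smc1a (26.4), Smc1b (23.9), Rec8 (15.6), Stag1 (9.97), Stag2 (5.84), Stag3 (5.57) and Rad21l (0.00686). At E18.5 Smc1b led with 68.8 ± 29.9 CPM per kb (SD, n = 4), above Smc3 at 38.8 ± 2.93 and Rad21 at 37.5 ± 3.59, and Rec8 at 24.2 ± 4.39 stood above Smc1a at 18.0 ± 1.404. At PND8 the order was Rad21 (83.9), Smc1a (43.1), Smc3 (31.3), Stag2 (17.2) and Stag1 (10.4), all above Rec8 (3.92), Smc1b (2.73), Stag3 (0.535) and Rad21l (0.0794). At 12wk Rec8 measured 3.60 CPM per kb while Stag3 and Smc1b measured 0.131 and 0.129. Several neighbours in these orders differed by less than the larger of their SDs: Smc3 and Rad21, Smc1a and Smc1b, and Stag2 and Stag3 at E13.5; Smc3 and Rad21, and Stag2 and Stag1 at E18.5; Rec8 and Smc1b at PND8; and Stag3 and Smc1b at 12wk. The merged exons of Stag1 span 11781 bases and its longest transcript 6186, and per kb of longest transcript it stood above Stag2 at E18.5, at 13.4 against 9.98 CPM per kb.

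The meiotic share of each subunit class was computed from the same CPM per kb. At E18.5 Rec8 made up 38.6% ± 3.62 of the kleisin level in wild-type ovaries and 15.2% ± 2.47 in Cdkn1b-null ovaries (SD, n = 4 each). At E13.5 it made up 22.3% ± 4.75 (n = 4) in wild type and 15.9%, 44.5% and 20.1% in the Cdkn1b-null libraries, replicate 3 being the highest. After birth it made up 4.45% ± 1.34 (n = 4) against 1.23% ± 0.117 (n = 3) on PND8. The 12wk values were 5.21% ± 2.37 (n = 4) and 1.25% ± 0.372 (n = 3). Rec8 and Rad21 enter this share together, and at E18.5 one measured lower and the other higher in Cdkn1b-null ovaries.

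In wild type, in order of age, Stag3 was 26.1% ± 1.605, 17.9% ± 2.08, 1.90% ± 0.331 and 0.517% ± 0.274 of the STAG level (SD, n = 4 each). Smc1b was 47.5% ± 2.67, 77.4% ± 7.01, 5.95% ± 2.96 and 0.386% ± 0.162 of the Smc1a and Smc1b level in the same groups. The Stag3 share thus fell from the first age on, and the Smc1b share peaked at E18.5. In Cdkn1b-null ovaries at E18.5 the shares were 11.8% ± 3.88 for Stag3 and 63.4% ± 5.81 for Smc1b (n = 4 each). The Smc1b share ranged from 71.02% to 84.1% in wild type and from 59.5% to 72.0% in Cdkn1b-null libraries at E18.5, so the groups overlapped narrowly. At E18.5 the 4 meiotic genes together were 46.5% ± 6.71 of the summed level of all 9 in wild-type and 28.3% ± 4.20 in Cdkn1b-null ovaries. Rec8 and the 2 called mitotic genes enter these sums, so they are given without a test.

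**Figure D5:**
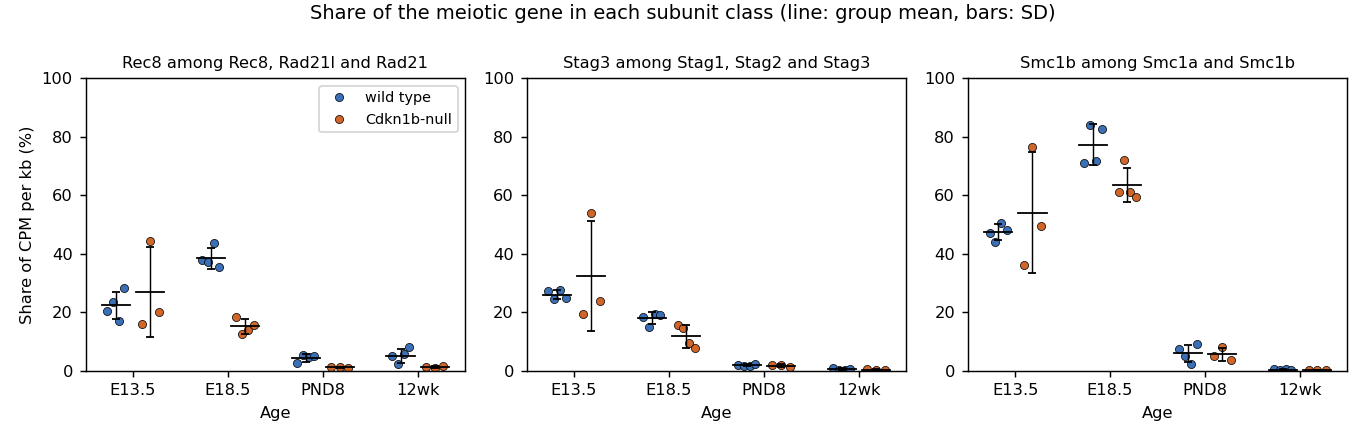
Share of the meiotic gene in the summed CPM per kb of its subunit class (percent, axis 0 to 100) in every library, with group means as lines and SDs as bars. Rec8 falls from 38.6% of the kleisin level at E18.5 to 4.45% at PND8 in wild type, and its Cdkn1b-null points lie below wild type at both ages.

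The genes that load, modify, protect and cleave cohesin were taken from a list of 15. At E18.5, 4 of 15 were called higher in Cdkn1b-null ovaries and 0 lower, where 3.32% of all genes were called higher. The list's median was -0.01, against -0.04 over all genes. Cdca5 (sororin, which stabilises cohesin on replicated DNA) measured 18.3, 14.7, 14.3 and 10.8 CPM in wild type and 29.9, 33.1, 41.1 and 37.3 CPM in Cdkn1b-null libraries, a difference of 1.27 (SE 0.17, edgeR adjusted p 0.00261). Sgo2a, which shields centromeric cohesin in meiosis, measured 24.5, 18.5, 16.2 and 22.0 CPM against 35.8, 39.5, 49.3 and 41.4 CPM, a difference of 1.02 (SE 0.15, edgeR adjusted p 0.00427). Both kept their call in all 8 fits that left out 1 library. Sgo2a overlaps Kctd18 on the opposite strand, and since the counting is not stated to use strand, reads of the 2 genes may not have been told apart.

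The other 2 regulators called at E18.5 were Sgo1, the shugoshin of mitosis, and Esco2, an acetyltransferase that locks cohesin in S phase. Sgo1 differed by 0.84 (SE 0.20, edgeR adjusted p 0.0392) and Esco2 by 0.55 (SE 0.12, edgeR adjusted p 0.0224), without overlap for either. Sgo1 kept its call in 2 of the 8 fits that left out 1 library, those without wild-type replicate 1 or 2, with edgeR adjusted p from 0.0609 to 0.135 in the other 6. Esco2 kept it in 3 of 8, those without wild-type replicate 1 or 2 or Cdkn1b-null replicate 2, with edgeR adjusted p from 0.0613 to 0.0991 in the other 5, and lost it with all groups in 1 fit (0.0927). At E13.5, PND8 and 12wk, 0 of the 14 regulators tested were called, where 0.00606%, 0.349% and 0.0115% of all genes were called. The genotype effect differed over the 4 ages for Cdca5 and Sgo2a (edgeR interaction, adjusted p 0.0283 and 0.0378), 2 of 15, where 0.806% of all genes were called.

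In wild type, 1 of 15 regulators rose and 5 fell from E13.5 to E18.5, where 16.6% of all genes rose and 17.5% fell. The fallers were Cdca5 (-1.82, SE 0.17), Espl1 (the separase that cleaves kleisins, -1.38, SE 0.28), Sgo2a (-1.29, SE 0.15), Esco2 (-1.06, SE 0.15) and Sgo1 (-0.96, SE 0.21). The gene that rose was Meikin, a meiotic kinetochore protein, at 0 to 0.0911 CPM at E13.5 and 1.74 to 2.43 CPM at E18.5. From E18.5 to PND8, 8 of 15 rose and 5 fell, where 37.6% of all genes rose and 36.9% fell. Espl1 (2.19, SE 0.12), Ctcf (1.85, SE 0.12) and Pds5a (1.37, SE 0.10) had the largest rises, and Meikin (-3.76, SE 0.72) and Pttg1 (securin, -2.005, SE 0.12) had the largest falls. From PND8 to 12wk, 2 of the 14 tested rose, namely Wapl (0.48, SE 0.09) and Esco1 (0.37, SE 0.12), and 6 fell, where 30.5% of all genes were called and 14.3% fell. All of these passed the edgeR test.

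In Cdkn1b-null ovaries, 5 of 15 regulators rose and 3 fell from E13.5 to E18.5, where 30.2% of all genes were called. From E18.5 to PND8, 6 of 15 rose and 7 fell, near the 77.4% of all genes that were called. From PND8 to 12wk, 0 of 14 rose and 7 fell, where 29.1% of all genes were called and 14.3% fell. Espl1 fell over the first step in both genotypes, by 1.27 in Cdkn1b-null ovaries (SE 0.21), and rose over the second by 2.34 (SE 0.13). Cdca5 fell less in the first step than in wild type, by 0.55 (SE 0.15). The difference between the genotypes in that step was 1.24 for Cdca5 (SE 0.28, edgeR adjusted p 0.0414) and 1.18 for Sgo2a (SE 0.23, edgeR adjusted p 0.016).

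The genes most like each member were found over the 29 libraries, by the Pearson correlation of log2 CPM with about 12940 genes of mean CPM at least 2, predicted and clone-named genes left out. The libraries fall into 8 groups that differ in age, so these values mostly compare group levels, and they carry no test. Nearest to Rec8 were Mdfi (r = 0.93), Eva1b (0.93) and Cfap300 (0.93). Nearest to Stag3 were Mios (0.97), Rec114 (0.97) and Trap1a (0.97), and nearest to Smc1b were Syce1 (0.99), Mov10l1 (0.98) and Slc25a31 (0.98). Rad21l lay nearest to Poln (0.92), Zfp541 (0.92) and Terb1 (0.91). Among mitotic genes, Smc1a lay nearest to Nup155 (0.97), Sept6 (0.96) and Ipo5 (0.96), and Rad21 to Nup155 (0.97), E2f7 (0.96) and Prr11 (0.96). The 4 meiotic genes shared none of their 3 nearest genes with each other, while Nup155 was nearest to both Smc1a and Rad21. Yet Stag3 correlated with Smc1b at 0.93, as Rad21 did with Smc1a, and Rec8 correlated with Stag3 at 0.84 and with Smc1b at 0.80. Rad21l correlated less with the other meiotic genes, at 0.43 to 0.65.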

How the data were processed

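RNA from dissociated ovary cells was sequenced in 29 libraries, and the values are the RSEM expected counts per gene that the authors deposited. The submitters' processing notes name Trim Galore, STAR 2.5.2, RSEM 1.3.0 and FastQC 0.11.5. The genome build, annotation release and use of strand are not given in the sources used here. Of the nonzero values, 31.4% were not whole, and counts were rounded before testing. Groups came from the genotype and age labels. Levels are CPM with TMM factors over all libraries, and per kb levels used merged exons of GENCODE M21 on GRCm38, which may not be the authors' annotation. Each comparison was fitted on its own 2 groups with edgeR 4.0.16 (R 4.3.3, limma 3.58.1): TMM, filterByExpr with a minimum count of 10 and total of 15, and a robust quasi-likelihood test. Benjamini-Hochberg adjustment ran over all genes tested. The interaction used all 29 libraries. The procedure was tested on simulated data. Alternatives were DESeq2 1.42.0, RLE scaling, no low-count filter, 1 fit of all groups, a replicate block and leaving out each library. The members, the 15 regulators and the marker lists (germ cell, meiotic prophase, oocyte, stroma, dividing cells) were chosen with earlier results of these data known. The text names the members, the regulators called, and the 3 genes most like each of 6 members. Intervals and limits cover counting error only, since no molecular identifiers are described. Replicates differed by more than sampling noise in all 39 pairs (chi-square per degree of freedom at least 14.1), so none was counted as a copy.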

Additional observations from a re-analysis of the deposited data

Results flagged for a closer look

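Among 45 sets of 4 wild-type or Cdkn1b-null libraries, 1 per gene and group of 4, 3 held a library far from the others by Dixon's criterion, which chance meets in about 1 of 20 sets. Stag3 at E18.5 was lowest in wild-type replicate 2, at 12.44 CPM, while the other 3 libraries lay at 20.1 to 20.6 CPM. Rad21l at E13.5 was highest in wild-type replicate 1, at 0.04555 CPM, which is a single count while the other 3 libraries held 0. Rad21 at 12wk was highest in wild-type replicate 3, at 339.1 CPM, while the other 3 lay at 247 to 255 CPM.

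The step from E13.5 to E18.5 was compared between genotypes. For Smc1a the Cdkn1b-null step minus the wild-type step was 0.6007 on the log2 scale, and the difference was tested over all 29 libraries (edgeR adjusted p 0.0221). The call was lost without E18.5 wild-type replicate 3 (0.0515), E18.5 Cdkn1b-null replicate 3 (0.0639), or E13.5 Cdkn1b-null replicate 3 (0.072) or 4 (0.0568). For Rec8 it was -1.876, with the wild-type step upward and the Cdkn1b-null step downward. That difference was not tested, since Rec8 was chosen on its genotype difference, and it was -1.17 without E13.5 Cdkn1b-null replicate 3.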

How the results depend on the processing

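Over the 8 genes other than Rec8, 8 counts of subunits called moved under an alternative that kept all libraries. With DESeq2 the genotype count went from 2 to 4 at E18.5, from 0 to 3 at PND8 and from 0 to 1 at 12wk, and the interaction count from 0 to 1. With all groups in 1 fit the E18.5 count was 4, which is given without the share over all genes, so nothing is read from it. The Cdkn1b-null count from E13.5 to E18.5 went from 2 to 1 with no low-count filter and to 1 with the replicate block. The Cdkn1b-null count from PND8 to 12wk went from 5 to 2 with the block. Leaving out 1 library gave 0 to 3 at E18.5, 0 to 2 and 2 to 4 for those Cdkn1b-null steps and 0 to 1 for the interaction. The E13.5 Rec8 difference was -0.20 to 0.79, and its sign turned only without Cdkn1b-null replicate 3 (-0.2006), the highest value being 0.793 without replicate 1. Over all genes, the count called was 1 at E13.5 (DESeq2 65, all groups in 1 fit 59), 814 at E18.5 (DESeq2 1685) and 62 at PND8 (no filter 258, DESeq2 824, all groups 0, block 8). It was 2 at 12wk (no filter 12, DESeq2 326, all groups 68, block 10) and 164 for the interaction (DESeq2 706). Leaving out 1 library gave 0 to 1 at E13.5, 246 to 1372 at E18.5, 0 to 147 on PND8, 0 to 3 at 12wk and 72 to 235 for the interaction. The labels give no shared litter, so whether replicate numbers pair the libraries is not known. Same-numbered deviations correlated at -0.0956 to 0.161 and differently numbered ones at -0.238 to 0.203. At E18.5 these ranges were 0.04 to 0.139 and -0.21 to 0.173. The block ended the wild-type calls of Rec8 (edgeR adjusted p 0.0644) and Stag2 (0.144) and the Cdkn1b-null call of Stag3 (0.218) from E13.5 to E18.5, the Cdkn1b-null calls of Rad21 (0.0645), Smc1a (0.0606) and Smc3 (0.0736) from PND8 to 12wk, and the Smc1a step difference (0.0818). It added the wild-type call of Rad21 from PND8 to 12wk (0.0471) and changed no other subunit call. All groups in 1 fit ended the Cdkn1b-null call of Rad21l from E18.5 to PND8 (0.0616). A length from the longest transcript moved 9 of 40 class shares, for example Rec8 at E18.5 to 44.1% and 18.4%. The cause of these changes was not tested. Rad21l could not be tested between genotypes outside E18.5, where its counts were lower (18 and 24 on PND8 against 115 and 102 at E18.5).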
